A study of Mus musculus with 6 samples.

Results

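The nuclear oxidative phosphorylation genes described here are 49 genes that encode subunits of the mitochondrial respiratory chain and of ATP synthase, plus the electron carrier cytochrome c. They were taken by symbol from the 55401 genes of the deposited count table, and all 49 were found. They divide into 15 subunits of complex I, 4 of complex II, 6 of complex III, 10 of complex IV, 13 of complex V (ATP synthase) and cytochrome c itself (Cycs). Ndufa4 was placed with complex IV, of which it is now counted a subunit in spite of its name, and complex V genes carry their older Atp5 symbols.

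The RNA came from articular cartilage of the knee of mice aged 10 weeks, sequenced as 2 groups of 3 libraries, so n = 3 per group throughout. The libraries titled CTRL1 to CTRL3 have the genotype WT, and those titled CKO1 to CKO3 are adseverin knockouts. Mice of both groups were given tamoxifen, 1.5 mg per 10 g of body weight, once a day over 5 days starting at 8 weeks, so the control libraries share the drug with the knockouts. The sources used here do not give the Cre driver or the deleted part of the gene. No label says whether the libraries of a group came from separate mice, so the p-values rest on the spread among these libraries, some of which may be technical.

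Oxidative phosphorylation passes electrons from NADH through complex I, and from succinate through complex II, to ubiquinone, then through complex III and cytochrome c to complex IV, where oxygen is reduced. Complexes I, III and IV pump protons across the inner mitochondrial membrane, and complex V uses the returning protons to make ATP. Subunits of complexes I, III, IV and V come from both the nuclear and the mitochondrial genome, while complex II is encoded in the nucleus alone. Articular cartilage has no blood vessels, and its chondrocytes work at low oxygen and draw much of their ATP from glycolysis.

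The labels were checked by the targeted gene. Scin, which encodes adseverin, an actin-severing and actin-capping protein, measured 186, 185 and 219 CPM (reads relative to the size of the library, TMM-normalised) in CTRL1 to CTRL3 and 39.1, 29.9 and 29.4 CPM in CKO1 to CKO3. Every knockout library lay below every control library, at 16.6% of the control mean (log2 fold change -2.59 ± 0.14 SE; adjusted p = 6.59e-04 by edgeR's quasi-likelihood test with Benjamini-Hochberg adjustment). The adjusted p was 0.0536 when CTRL2 and CKO3 were both left out. No other of the 16260 genes in the test had an adjusted p under 0.05, so that 1 gene, or 0.00615%, was called. Read totals ran from 22664828 to 31014996 per library. All 11 chondrocyte markers were measured, with summed levels of 32222 to 33337 CPM in CTRL and 34888 to 40085 CPM in CKO. Osteoblast and osteocyte markers summed to 26968 to 30125 CPM in CTRL and 30237 to 33791 CPM in CKO. In both sums every knockout library lay above every control, but a single gene carried the largest part of each. Col2a1 alone held 14452 to 15301 CPM in CTRL and 15914 to 20596 CPM in CKO, and Ibsp 23181 to 25513 and 24365 to 30048 CPM. Acan, also a chondrocyte marker, went the other way, at 1273, 1322 and 1440 CPM in CTRL and 708, 949 and 989 CPM in CKO. The skeletal muscle markers summed to 1729 CPM in CTRL2 and to 44.8 to 297 CPM in the other libraries.

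All 49 genes passed the filter on low counts, with between 326 reads (Sdhc) and 11832 reads (Uqcrc1) in a library, and none of them passed the test between the groups. The smallest adjusted p of a member was 0.682, for Ndufb8. The fitted log2 fold changes, knockout minus control, ran from -0.33 (Sdhc) to 0.13 (Sdha), and 31 of the 49 lay within 0.15 of 0. The direction was uneven: 44 members lay below 0 and 5 above, where 49.4% of all tested genes lay below 0. The median over the members was -0.11, and that over all tested genes was 0.004. The SE of a single member's log2 fold change was 0.077 to 0.169 (median 0.093), so the typical member's difference was about the size of its own error. Since RNA came from whole tissue, fewer cells of a type and less RNA per cell cannot be told apart.

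At an unadjusted p under 0.05, 5 members were lower in the knockout (Ndufb8, Uqcrc2, Atp5g1, Atp5g3 and Atp5e) and 0 were higher, where 2.96% of all tested genes were lower and 3.54% higher at that threshold. The 3 knockout values all lay below the 3 control values for 15 members, where this held for 5.89% of tested genes, and above them for 1 member, Ndufs7, where it held for 6.41%. The 15 were Ndufa8, Ndufa9, Ndufb5 and Ndufb8 of complex I, Uqcrc2, Uqcrfs1 and Cyc1 of complex III, Cycs, Ndufa4 and Cox5a of complex IV, and Atp5b, Atp5d, Atp5g1, Atp5g3 and Atp5o of complex V. DESeq2 gave 0 members past an adjusted p of 0.05 and 5 at an unadjusted p under 0.05. The count of 5 was 2 without CTRL2, 3 without CKO1, 1 without CKO2 and 1 without both CTRL2 and CKO3. The count of 15 was 34 without CTRL1 and 24 without CKO3, and 16, 17, 18 and 17 without CTRL2, CTRL3, CKO1 and CKO2. With a library left out, any gene parts its groups more easily. For these settings the shares of all tested genes, without overlap or lower at an unadjusted p under 0.05, are not given. These counts therefore cannot be set against the 15 or the 5.89%, nor against the 5 or the 2.96%.

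**Figure D1:**
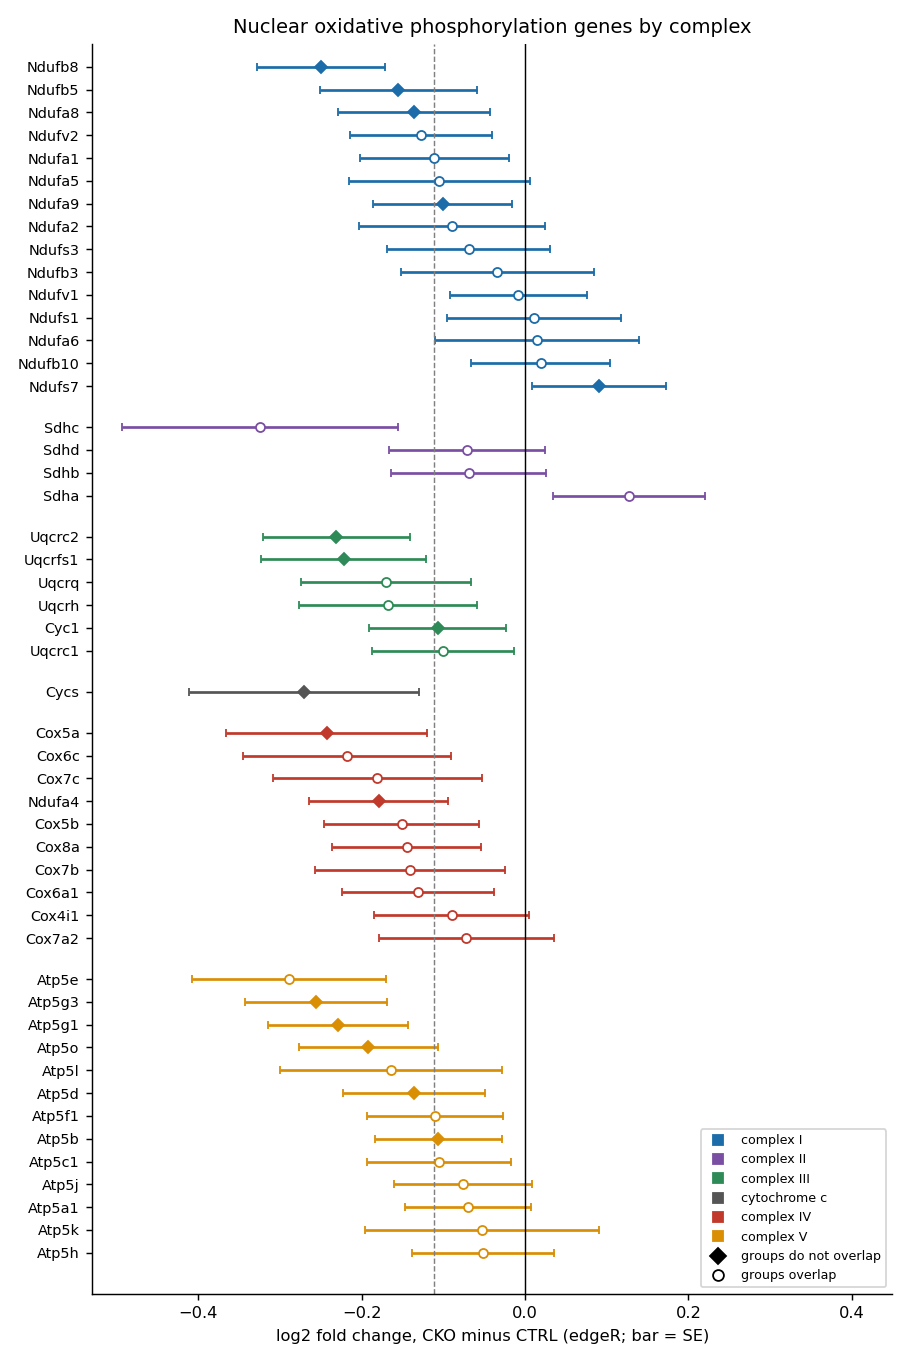
Log2 fold change of each of the 49 genes (x axis, knockout minus control, bar = SE), ordered within complexes I to V on the y axis; filled diamonds mark genes whose groups did not overlap, and the dashed line is the median over the members. The points lie left of 0 for 44 genes, and the 5 to the right are 4 complex I genes and Sdha.

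The libraries did not split cleanly by group over the whole set. The median member deviated from its own mean over the 6 libraries by -0.03, 0.09 and 0.10 on the log2 scale in CTRL1, CTRL2 and CTRL3, and by -0.09, -0.09 and -0.02 in CKO1, CKO2 and CKO3. CTRL2 and CTRL3 were thus the high libraries and CKO1 and CKO2 the low ones, while CTRL1 lay just below CKO3. CTRL1 was the lowest control in 33 of 49 members, and CKO3 was the highest knockout in 30. The highest of the 6 libraries was a control in 42 members, while the lowest was a knockout in 36 and CTRL1 in 10. Leaving out CTRL1 moved the median of the members from -0.11 to -0.18.

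**Figure D2:**
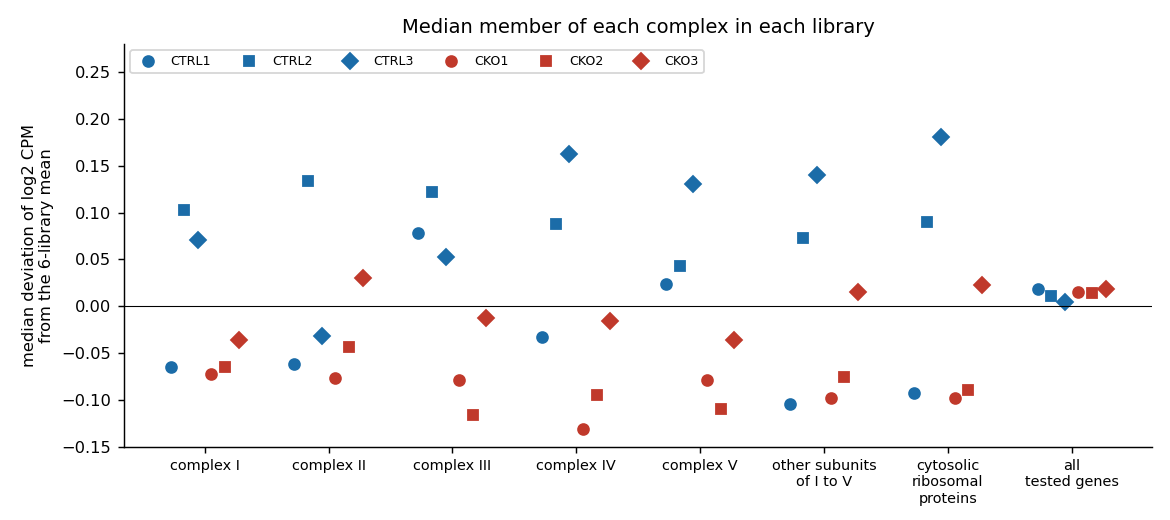
Median deviation of log2 CPM from the 6-library mean (y axis) in each library, for the members of each complex, the other subunits of complexes I to V, the cytosolic ribosomal proteins and all tested genes; circles, squares and diamonds are libraries 1, 2 and 3, controls blue and knockouts red. In complex III all 3 controls lie above all 3 knockouts, in complex II the groups interleave, and all tested genes stay near 0.

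Set side by side, complex III had a median log2 fold change of -0.17 with 6 of 6 genes below 0, complex IV -0.15 with 10 of 10, complex V -0.11 with 13 of 13, complex I -0.09 with 11 of 15 and complex II -0.07 with 3 of 4. Differences between complexes were not tested. The order of the complexes changed with single libraries left out: the complex I median was -0.04 without CKO1 and -0.04 without CTRL3, the complex II median -0.03 without CTRL2, and the complex IV median -0.08 without CTRL3. In complexes III and V each control's median deviation lay above each knockout's: complex III deviated by 0.08, 0.12 and 0.05 in CTRL1 to CTRL3 and by -0.08, -0.12 and -0.01 in CKO1 to CKO3, and complex V by 0.02, 0.04 and 0.13 and by -0.08, -0.11 and -0.04. In the other complexes the groups overlapped: CTRL1 lay below CKO3 in complexes I (-0.07 against -0.04), II (-0.06 against 0.03) and IV (-0.03 against -0.02), and CTRL3, at -0.03, also lay among the knockouts in complex II.

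Complex I takes electrons from NADH in an arm that projects into the matrix and pumps protons through an arm in the membrane. Ndufb8, a supernumerary subunit of the membrane arm, had the smallest p of all members. The gene (ENSMUSG00000025204) spans 44548572 to 44555440 on chromosome 19 of GRCm38. It measured 131, 130 and 125 CPM in CTRL1 to CTRL3 and 106, 113 and 106 CPM in CKO1 to CKO3, so the groups did not overlap. Its log2 fold change was -0.25 ± 0.08 (edgeR quasi-likelihood test, adjusted p = 0.682), and it ranked 285th by p among the tested genes. Ndufb5, also of the membrane arm, measured 54.4, 60.5 and 58.1 CPM in CTRL and 51.3, 50.8 and 53.3 CPM in CKO (-0.16 ± 0.10, adjusted p = 0.854). Ndufa8, an accessory subunit of the same arm, measured 97.2, 116 and 99.6 CPM in CTRL and 94.4, 94.6 and 95.5 CPM in CKO (-0.14 ± 0.09, adjusted p = 0.869). In both of these the groups were separated by a narrow gap, with CTRL1 the control nearest the knockouts. Ndufa9, a subunit of the part that reduces ubiquinone, measured 81.7, 78.3 and 78.5 CPM in CTRL and 71.5, 77.9 and 72.8 CPM in CKO (-0.10 ± 0.09), and its groups were parted only by the step from CKO2 to CTRL2. Ndufa1, a small membrane-arm subunit encoded on the X chromosome, measured 103, 120 and 117 CPM in CTRL and 109, 100 and 105 CPM in CKO (-0.11 ± 0.09), so CTRL1 lay within the knockout range.

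Ndufs7, Ndufs1 and Ndufv1 of the matrix arm stood near 0 or above. Ndufs7, which holds the iron-sulphur cluster that hands electrons to ubiquinone, was the 1 member whose knockout values all exceeded the controls. It measured 77.1, 81.6 and 75.9 CPM in CTRL and 82.7, 82.3 and 85.0 CPM in CKO, a gap between the groups of under 1 CPM (0.09 ± 0.08, edgeR quasi-likelihood test, adjusted p = 0.905). Ndufs1, the largest iron-sulphur subunit, measured 71.4, 87.6 and 73.2 CPM in CTRL and 80.1, 73.3 and 80.4 CPM in CKO, with CTRL2 the highest of all libraries. Its log2 fold change of 0.01 ± 0.11 lay below 0 when any 1 of CTRL1, CTRL3, CKO1 and CKO3 was left out. Ndufv1, which binds NADH, stood at 107 ± 4.75 CPM (SD) in CTRL and 107 ± 5.42 CPM in CKO (-0.01 ± 0.08), and Ndufv2, its partner in the same module, at 170 ± 8.37 and 156 ± 11.6 CPM (-0.13 ± 0.09). The remaining complex I genes, Ndufa2, Ndufa5, Ndufa6, Ndufb3, Ndufb10 and Ndufs3, had log2 fold changes from -0.11 to 0.02.

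Complex II oxidises succinate and is also an enzyme of the citric acid cycle. Its members held both ends of the range. Sdha, the flavoprotein that oxidises succinate, measured 377, 406 and 330 CPM in CTRL and 417, 387 and 411 CPM in CKO. CTRL3 was the low library and CTRL2 lay inside the knockout range, and the difference of 0.13 ± 0.09 did not pass (adjusted p = 0.879). Sdhc, a membrane anchor that binds ubiquinone, measured 16, 20.8 and 20.6 CPM in CTRL and 14.4, 14.3 and 17.1 CPM in CKO. CTRL1 overlapped the knockouts, and the SE of its log2 fold change of -0.33 ± 0.17 was the largest of any member (edgeR quasi-likelihood test, adjusted p = 0.812). Sdhb, the iron-sulphur subunit, measured 168, 209 and 190 CPM in CTRL and 173, 187 and 180 CPM in CKO (-0.07 ± 0.10), and the sign of its difference turned to 0.001 without CTRL2. Sdhd, the other anchor, stood at 103 ± 8.72 CPM in CTRL and 98.5 ± 5.29 CPM in CKO (-0.07 ± 0.10).

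Complex III passes electrons from ubiquinol to cytochrome c. Uqcrc2, a core protein of the matrix side encoded on chromosome 7 (120635176 to 120659524), measured 108, 112 and 103 CPM in CTRL and 99.5, 87.8 and 87.8 CPM in CKO, without overlap (-0.23 ± 0.09, edgeR quasi-likelihood test, adjusted p = 0.715). Uqcrfs1, the Rieske iron-sulphur protein, measured 79.9, 72.1 and 68.3 CPM in CTRL and 64.4, 65.9 and 58.6 CPM in CKO, again without overlap (-0.22 ± 0.10, adjusted p = 0.783). Cyc1, the haem protein that passes electrons on to cytochrome c, measured 148, 133 and 134 CPM in CTRL and 133, 122 and 131 CPM in CKO. CTRL2 and CKO1 were nearly level in Cyc1 (-0.11 ± 0.08, adjusted p = 0.894). Uqcrc1, the other core protein, measured 421, 433 and 427 CPM in CTRL and 366, 387 and 441 CPM in CKO, with CKO3 the highest of all (-0.10 ± 0.09). The small subunits Uqcrq and Uqcrh both had a log2 fold change of -0.17. Cycs, the soluble carrier between complexes III and IV, measured 26.3, 35.0 and 30.9 CPM in CTRL and 25.8, 24.3 and 26.3 CPM in CKO. CTRL1 and CKO3 both read 26.3 CPM, so the groups were parted by less than the printed digits (-0.27 ± 0.14, adjusted p = 0.812).

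Complex IV reduces oxygen, and its nuclear subunits surround a core encoded in the mitochondrion. Ndufa4 measured 99.3, 101 and 103 CPM in CTRL and 94.7, 83.2 and 90.3 CPM in CKO (-0.18 ± 0.09, edgeR quasi-likelihood test, adjusted p = 0.793). Cox5a measured 26.9, 27.9 and 26.9 CPM in CTRL and 22.5, 21.8 and 24.8 CPM in CKO (-0.24 ± 0.12, adjusted p = 0.810). In both genes the controls were close together and all lay above the knockouts. Cox6c measured 109 ± 18.1 CPM (SD) in CTRL and 93.4 ± 6.1 CPM in CKO (-0.22 ± 0.13), the widest control spread of the complex. Cox4i1, a subunit with a part in regulation by ATP, measured 178, 196 and 199 CPM in CTRL and 166, 173 and 199 CPM in CKO (-0.09 ± 0.10), so CKO3 was level with CTRL3. Cox6a1 measured 71.7, 80.1 and 75.8 CPM in CTRL and 66.3, 67.8 and 73.7 CPM in CKO (-0.13 ± 0.09), and Cox8a measured 112, 114 and 126 CPM in CTRL and 99.2, 106 and 113 CPM in CKO (-0.15 ± 0.09). In each of these 2 supernumerary subunits, CKO3 passed CTRL1. Cox7a2, another small subunit, measured 92.8, 99.7 and 119 CPM in CTRL and 96.3, 101 and 99.3 CPM in CKO, where CTRL3 alone lay above the knockouts, and its log2 fold change of -0.07 ± 0.11 turned to 0.04 without CTRL3. Cox5b, Cox7b and Cox7c lay between -0.14 and -0.18.

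Complex V is a rotary motor whose membrane ring, built of the c subunit, turns a central stalk inside a catalytic head. The c subunit is encoded by Atp5g1, Atp5g2 and Atp5g3, which give the same mature protein from different precursors. Atp5g3, on chromosome 2 (73908447 to 73911326), measured 84.2, 86.3 and 87.6 CPM in CTRL and 73.4, 67.3 and 75.5 CPM in CKO (-0.26 ± 0.09, edgeR quasi-likelihood test, adjusted p = 0.700). Atp5g1, on chromosome 11 (96068852 to 96075670), measured 69.3, 70.2 and 67.4 CPM in CTRL and 57.8, 58.3 and 60.4 CPM in CKO (-0.23 ± 0.09, adjusted p = 0.707). The groups were well apart in both, with an SD of 1.41 to 4.27 CPM within groups. Atp5g2, the paralogue outside the set, measured 21.6, 22.1 and 20 CPM in CTRL and 16.9, 20.5 and 19.2 CPM in CKO, with CKO2 above CTRL3 (-0.17 ± 0.14, adjusted p = 0.897).

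Atp5e, the epsilon subunit of the central stalk, was chosen for mention after its values were seen. It measured 65.6, 79.5 and 85.4 CPM in CTRL and 59.6, 61.5 and 67.5 CPM in CKO, so CTRL1 lay within the knockout range (-0.29 ± 0.12, edgeR quasi-likelihood test, adjusted p = 0.736). Atp5d, the delta subunit beside it, measured 91.5, 91.1 and 101 CPM in CTRL and 84.1, 83.5 and 90.3 CPM in CKO, with CKO3 just under CTRL2 (-0.14 ± 0.09). Atp5b, the catalytic beta subunit of the head, measured 315, 285 and 287 CPM in CTRL and 279, 262 and 282 CPM in CKO (-0.11 ± 0.08, adjusted p = 0.883), and Atp5a1, the alpha subunit, stood at 346 ± 16 CPM (SD) in CTRL and 329 ± 15.5 CPM in CKO (-0.07 ± 0.08). The gap in Atp5b was the few CPM between CKO3 and CTRL2. Atp5o, the subunit that joins the head to the outer stalk, measured 73.0, 77.1 and 79.0 CPM in CTRL and 66.5, 68.0 and 66.1 CPM in CKO (-0.19 ± 0.09, adjusted p = 0.777). Of its exonic bases, 47.9% are shared with other annotated genes, so its reads are less certain. Such sharing exceeded 5% of exonic bases in 10 members, among them Uqcrc2 (19.75%), Cox5a (12.8%) and Ndufb5 (12.33%), whose groups were also parted. Atp5j, a small subunit of the outer stalk, measured 182, 204 and 207 CPM in CTRL and 182, 182 and 199 CPM in CKO (-0.08 ± 0.09). Of the others, Atp5c1 (gamma, the shaft), Atp5f1 and Atp5h (outer stalk), Atp5k and Atp5l (membrane part) had log2 fold changes of -0.05 to -0.16. Near-identical copies in other annotated genes exist for Ndufs3, Cox7c, Atp5c1, Atp5h, Atp5k, Atp5l and Atp5o. Up to 17.1% of the combined reads (Atp5o) were assigned to the copy. The location of the copies was not checked, so a copy may overlap its member. The symbol Atp5o belonged to 2 identifiers, of which the one with more reads was taken.

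**Figure D3:**
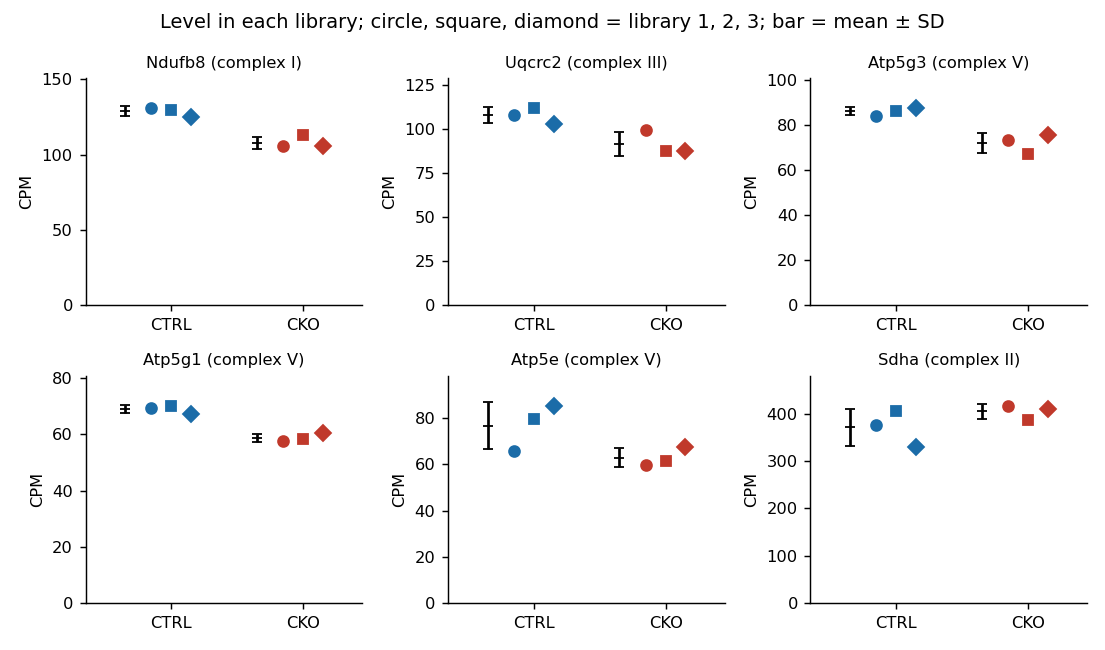
CPM in each library (y axis, from 0) for Ndufb8, Uqcrc2, Atp5g3, Atp5g1, Atp5e and Sdha; circle, square and diamond are libraries 1, 2 and 3, bars are mean ± SD. Groups are apart in the first 4 genes, CTRL1 falls among the knockouts in Atp5e, and CTRL3 is the low library in Sdha.

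To show what stands upstream of the members lower at an unadjusted p under 0.05, the promoters of the 4 of these 5 with a RefSeq window, Ndufb8, Atp5g3, Atp5g1 and Atp5e, are given with that of Cycs, whose promoter holds a motif of nuclear respiratory factor 1 (NRF1). Each is the 120 bases just upstream of the RefSeq start or of the GENCODE gene start, whichever lies further upstream. For Atp5g1 and Atp5e that is the GENCODE start. All are cut from the RefSeq windows on the minus strand of GRCm38 and written 5′ to 3′, and capitals mark a searched motif on either strand. Positions are chr19:44555443-44555562, chr2:73911327-73911446, chr11:96075671-96075790, chr2:174464106-174464225 and chr6:50566570-50566689 in the order shown. The upstream end of the Cycs stretch overlaps the annotated noncoding gene 5430402O13Rik on the other strand.
Ndufb8: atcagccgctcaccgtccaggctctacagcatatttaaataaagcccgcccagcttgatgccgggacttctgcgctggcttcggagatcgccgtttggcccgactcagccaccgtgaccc
Atp5g3: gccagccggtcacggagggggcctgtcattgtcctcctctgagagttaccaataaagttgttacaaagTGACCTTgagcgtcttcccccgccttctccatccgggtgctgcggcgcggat
Atp5g1: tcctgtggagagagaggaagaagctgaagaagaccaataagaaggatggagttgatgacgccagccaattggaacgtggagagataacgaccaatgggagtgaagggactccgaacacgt
Atp5e: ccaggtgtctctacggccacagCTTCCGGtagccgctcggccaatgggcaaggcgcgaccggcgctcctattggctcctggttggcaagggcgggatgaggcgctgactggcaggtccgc
Cycs: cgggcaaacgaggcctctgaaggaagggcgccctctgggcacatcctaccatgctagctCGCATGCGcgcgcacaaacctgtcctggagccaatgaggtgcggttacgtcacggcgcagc

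Motifs of 4 kinds of factor known from promoters of respiratory chain genes were searched on both strands in 300 bases around each start (250 upstream, 50 downstream). A window was found for 40 of the 49 members and for 27025 genes in all. The NRF1 core CGCANGCG stood in 15 of 40 member windows (37.5%) and in 8.42% of all windows, or 11.4% of those of 17492 protein-coding genes. The core CCGGAAG, bound by ETS factors such as GABP, stood in 10 (25% against 9.12% of all windows and 11.9% of protein-coding ones), the core AAGGTCA of oestrogen-related receptors in 5 (12.5% against 4.66% and 4.08%) and the YY1 sequence AAGATGGCG in 2 (5% against 1.49% and 1.94%). Member windows were also richer in GC, with a median of 58.8% against 52.7% over all windows and 56.3% over protein-coding ones, and this was not taken out of the shares. In the stretches printed above, Cycs holds the NRF1 core, Atp5e the ETS core and Atp5g3 the receptor core. Over the whole windows, Atp5g3 also holds the NRF1 core and Atp5e the receptor core, while Ndufb8 and Atp5g1 hold none of the 4. A match is a description of the letters and no sign that a factor was bound in these samples.

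Expressed per length of the principal transcript (FPKM, the CPM divided by the transcript's length in kilobases), the members spanned 48-fold. Ndufa1 was the highest at 270 ± 21.5 FPKM (SD) in CTRL and 250 ± 10.7 FPKM in CKO, and Sdhc the lowest at 6.03 ± 0.85 and 4.81 ± 0.50 FPKM. Levels exceeded 100 FPKM in 27 members and lay under 20 FPKM in 3 (Sdhc, Cycs and Atp5g1), whose principal transcripts are annotated as long as 3171, 3123 and 4715 bases; shorter transcripts in use would raise their level per length. Some neighbours in this order were closer than their spread, such as Uqcrc1, at 258 ± 3.57 FPKM, and Cox4i1, at 256 ± 15 FPKM in CTRL. Across the 49 genes, level and log2 fold change had a Spearman correlation of 0.254 and transcript length and log2 fold change one of 0.070, as descriptions over genes that share their libraries.

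**Figure D4:**
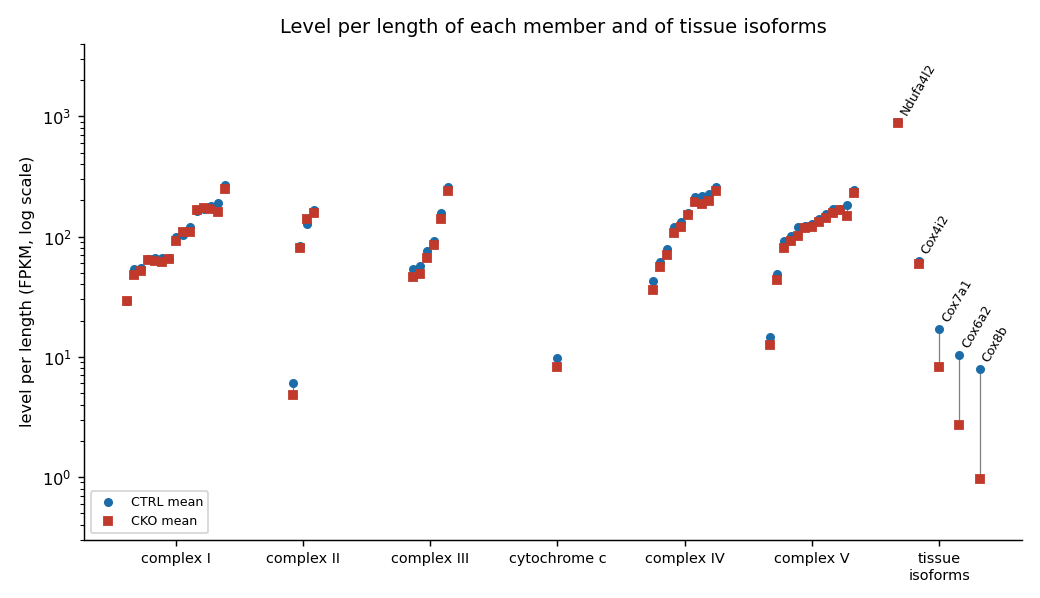
Mean level per length (y axis, FPKM, log scale) in control (blue circles) and knockout (red squares) of each member, ordered within its complex, and of tissue isoforms of the same subunits. Control and knockout symbols lie close together for the members, Ndufa4l2 stands above all members, and the muscle isoforms Cox7a1, Cox6a2 and Cox8b lie low with the control mean higher.

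Several subunits exist in more than 1 tissue form. Ndufa4l2, a relative of Ndufa4 known as a target of hypoxia-inducible factor, measured 742, 829 and 931 CPM in CTRL and 754, 875 and 849 CPM in CKO, with the groups mixed (-0.01 ± 0.10, edgeR quasi-likelihood test, adjusted p = 0.992). Per length it stood 3.99-fold above Ndufa4 in CTRL and 4.47-fold in CKO, and made up 78.3% to 83.6% of the pair over the 6 libraries. Cox4i2, the form of Cox4 associated with low oxygen, measured 39.5, 44.0 and 52.7 CPM in CTRL and 39.0, 43.6 and 46.2 CPM in CKO (-0.08 ± 0.14), and made up 18.5% to 21.4% of its pair with Cox4i1, with no order between groups.

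The muscle forms followed CTRL2. Cox6a2 measured 1.78, 19.0 and 0.532 CPM in CTRL and 1.59, 2.63 and 1.26 CPM in CKO, Cox7a1 4.09, 11.6 and 4.33 CPM in CTRL and 3.32, 3.79 and 2.55 CPM in CKO, and Cox8b 0.889, 7.46 and 0.228 CPM in CTRL and 0.310, 0.724 and 0 CPM in CKO. CTRL2, the highest library in all of them, was also the highest in summed skeletal muscle markers, at 1729 CPM against 77.2 and 44.8 CPM in CTRL1 and CTRL3 and 234, 297 and 46.2 CPM in CKO1 to CKO3. Of these genes Cox7a1 alone showed no overlap (-1.05 ± 0.45, edgeR quasi-likelihood test, adjusted p = 0.752). All 12 tested skeletal muscle markers of 15 lay below 0, and Myh7 was at 0 in 4 of the 6 libraries. Without CTRL2, 41 of the 49 members lay below 0, with a median of -0.12, where 49.9% of all tested genes lay below 0. In that setting 2 members were lower at an unadjusted p under 0.05 in the edgeR test, and the share of all tested genes is not given. The part of muscle in the level of the members was not tested.

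The 13 subunits encoded in the mitochondrial genome, among them mt-Nd1, mt-Cytb, mt-Co1 and mt-Atp6, were listed at 0 in every library, so no nuclear level could be set against its mitochondrial partner. The nuclear subunits of complexes I to V outside the 49 numbered 32, all tested, and 28 lay below 0 with a median of -0.10. The smallest p among them belonged to Ndufa10 of complex I (-0.22 ± 0.10, edgeR quasi-likelihood test, adjusted p = 0.793) and Uqcr10 of complex III (-0.17 ± 0.10, adjusted p = 0.840). Assembly factors, which build the complexes but stay out of them, had 30 of 44 below 0 (median -0.07), with Coa5 at -0.29 ± 0.11 and Surf1, a complex IV assembly factor, at 0.18 ± 0.10. Mitochondrial ribosomal proteins had 59 of 77 below 0 (median -0.10), with Mrpl49 at -0.32 ± 0.13 and Mrpl17 at -0.21 ± 0.09. No gene of these lists passed the test.

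Cytosolic ribosomal proteins, which are no part of mitochondria, had 76 of 82 below 0 and a median of -0.12, and their libraries lay in a similar order to those of the members. They deviated by -0.09, 0.09 and 0.18 in CTRL1 to CTRL3 and by -0.10, -0.09 and 0.02 in CKO1 to CKO3, with CTRL1 nearly as low as CKO1. Rps13 had a log2 fold change of -0.25 ± 0.10, and Rps4l one of 0.39 ± 0.17. Of the fuel pathways, the citric acid cycle and pyruvate dehydrogenase genes had 15 of 18 below 0 (median -0.08), with the dehydrogenase subunits Idh3a at -0.31 ± 0.11 and Dlat at -0.21 ± 0.08. Glycolysis genes had 11 of 16 below 0 (median -0.04), with hexokinase Hk2 at -0.59 ± 0.14 and Pgk1 at -0.14 ± 0.09. Fatty acid oxidation genes had 6 of 14 below 0 (median 0.03), with the carnitine palmitoyltransferases Cpt1a at 0.39 ± 0.19 and Cpt2 at 0.20 ± 0.10. Regulators of mitochondrial biogenesis and mtDNA had 7 of 15 below 0 (median 0.05), with the mtDNA helicase Twnk at -0.57 ± 0.28 and the coactivator Pprc1 at 0.27 ± 0.16.

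Genes of mitochondrial import, carriers and membranes had 15 of 20 below 0 and a median of -0.13. Of the 20, 5 were lower at an unadjusted p under 0.05 in the edgeR test, where 2.96% of all tested genes were. Vdac1, the channel of the outer membrane through which metabolites pass, measured 70.1, 78.5 and 83.8 CPM in CTRL and 59.7, 56.1 and 53.5 CPM in CKO, with a clear gap between groups (-0.46 ± 0.10, edgeR quasi-likelihood test, adjusted p = 0.596). Hspd1, the mitochondrial chaperonin, measured 97.1, 93.2 and 96.4 CPM in CTRL and 79.9, 79.3 and 73.7 CPM in CKO (-0.30 ± 0.08, adjusted p = 0.658). The difference of Vdac1 was larger than that of any member and that of Hspd1 larger than that of any member but Sdhc, and neither passed the test.

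**Figure D5:**
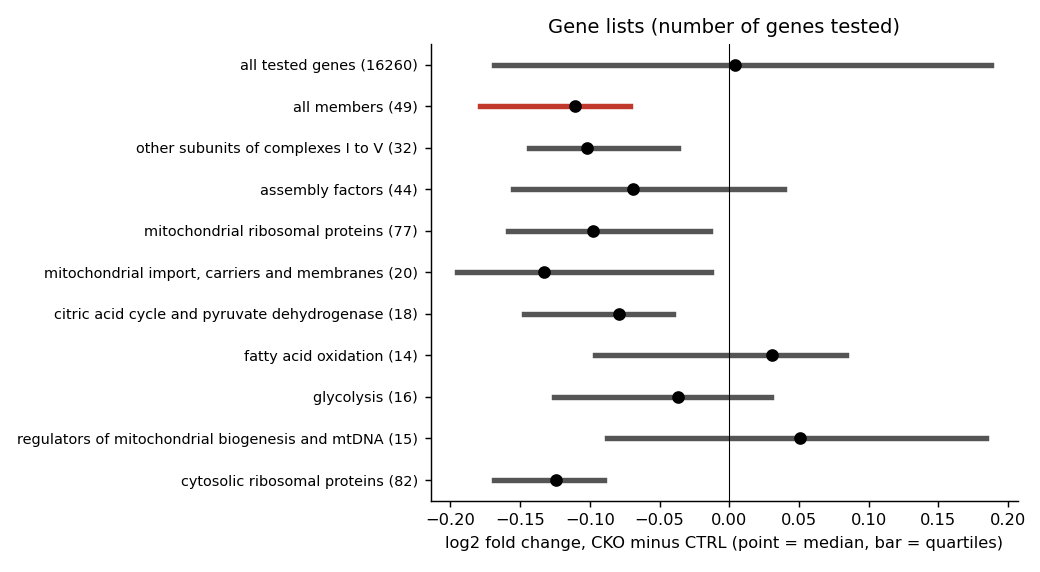
Median (point) and quartiles (bar) of the log2 fold change, knockout minus control (x axis), over all tested genes, the members and the other gene lists (y axis, number tested in brackets). The medians of the members and of the cytosolic ribosomal proteins both lie near -0.1, those of fatty acid oxidation and of the regulators lie above 0.

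Marker levels of other cell types differed between the libraries as well. Adipocyte markers had 8 of 8 tested below 0, with summed levels of 36.3 to 188 CPM in CTRL and 25.7 to 47.6 CPM in CKO, and Lep was at 0 in every library. Macrophage markers had 11 of 11 below 0 and summed to 888 to 1120 CPM in CTRL and 696 to 857 CPM in CKO. Fibroblast markers had 8 of 9 below 0, endothelial markers 7 of 9 and osteoclast markers 7 of 8, and the sums of each overlapped between groups. Fibroblast markers summed to 21895 to 27898 CPM in CTRL and 20131 to 26698 CPM in CKO. The endothelial sums were 60 to 93.3 and 44.5 to 85.3 CPM, and the osteoclast sums 866 to 2081 and 851 to 1648 CPM. Chondrocyte markers had 2 of 11 below 0 (median 0.22), osteoblast and osteocyte markers 1 of 9 (0.26), neutrophil markers 1 of 9 (0.37) and erythroid markers 0 of 9 (0.35). Neutrophil markers summed to 1119 to 1980 CPM in CTRL and 1323 to 2774 CPM in CKO. The erythroid sums were 2762 to 3100 and 2899 to 4412 CPM, so both overlapped between groups. The part of these cells in the level of the members was not tested.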

How the data were processed

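Per the labels' protocols, RNA was column-purified from tissue ground by beads, and an ultra-low-input kit made full-length cDNA. The submitters' processing notes list the build GRCm38 with HISAT2 2.2.1 (an aligner), featureCounts 2.0.1 (a read counter), FastQC 0.11.9 and, in R 4.0.5, DESeq2 1.30.1. The sources used here give neither the annotation release nor the handling of strand and of reads with several matches. The authors deposited raw read counts per gene for 55401 genes and, for 23239 genes, a normalized signal, whose non-zero values all (100%) came out as whole reads to within 0.001; 0 of these differed from the counts.

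Symbols and transcript lengths came from GENCODE for GRCm38, where 55141 identifiers had a symbol. Counts were filtered with filterByExpr, leaving 16260 genes, TMM-normalised and tested in edgeR 4.0.16 (glmQLFit, glmQLFTest, group only, 4 residual degrees of freedom), with Benjamini-Hochberg adjustment over all genes at 0.05. An SE is the log2 fold change divided by the square root of F. With 3 libraries on each side, the smallest exact permutation p is 0.1. Libraries of a group differed by a chi-square per degree of freedom of 31.4 to 36.5, so none was counted as a duplicate. The scripts were tested on simulated data. The members and lists were chosen with earlier results of these data known.

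Values per library are given for members without overlap between groups, the 2 smallest p of each complex, the extremes of level and change, Cycs and isoform pairs; for other lists, 2 genes by smallest p. Near-identical copies (at least 95% identity over 50% of a transcript) were found with blastn 2.17.0. Alternatives were DESeq2 1.42.0, limma-voom and limma-trend (3.58.1; log2 of the signal plus 1), other size factors and filters, robust dispersion, the replicate block, leaving out libraries, a length and GC trend removed and, chosen after seeing the data, reads of copies added to the members.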

Additional observations from a re-analysis of the deposited data

How the results depend on the processing

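With the number of the title as a replicate block, 1 gene was called over the whole table, 44 members lay below 0 and the smallest adjusted p of a member was 0.817; same-numbered libraries correlated at -0.0193, 0.0712 and 0.0235 after removing group means, so the numbers were not taken to pair the samples. DESeq2 called 91 genes and 0 members (smallest member adjusted p 0.277), with no adjusted p for 11540 genes. Without a filter 3 genes were called, Mcm6 and Trim10 beside Scin, and without CTRL3 2, Gm7292 beside Scin; these were named after their values were seen. With CTRL2 and CKO3 both left out, 0 genes were called, 1 member was lower at an unadjusted p under 0.05, 25 did not overlap and the complex V median was -0.180. With single libraries left out, 1 to 2 genes were called, 1 to 7 members were lower at an unadjusted p under 0.05 and 16 to 34 did not overlap. Fewer libraries let any gene part its groups more easily. No share over all tested genes is given beside these counts of members lower or without overlap. They cannot be compared with the counts from all libraries. The median of the members was then -0.175 to -0.090 and that of complex V -0.163 to -0.087. The sign turned for Ndufs1 (-0.048 to 0.102 with single libraries left out and -0.023 with the length and GC trend removed), Sdhb (-0.150 to 0.001, the latter without CTRL2, and 0.006 without CTRL2 and CKO3) and Cox7a2 (-0.152 to 0.039, the latter without CTRL3); the cause was not tested. The other 25 of 28 named genes kept their direction in all 19 settings, and 0 members passed an adjusted p of 0.05 in any setting with a test (removing the trend gave values only). With the trend removed, the median of the members was -0.099. With 3 libraries per group, the SE of a member's log2 fold change was 0.077 to 0.169.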
